A study of Schizosaccharomyces pombe with 3 samples.

Results

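The genes described here are 5 regulators around the switch from growth to meiosis in the fission yeast Schizosaccharomyces pombe, namely mei2, mei3, mei4, pat1 and mmi1. They were chosen by their symbol in the array's annotation. That annotation held 4 of the 5 symbols, and it listed the probe set of pat1 under ran1, a synonym with the same gene number. All 5 were measured, by 1 probe set each, among 2899 named genes and 4981 features in all. Their RNA was read on 3 Affymetrix arrays, 1 for each of 3 haploid cultures of mating type h-. The wild type was the prototrophic strain SpHT219, taken from a plate of rich medium (YE). The eca39 deletion was strain SpHT257-1, whose eca39 gene, which encodes a branched-chain aminotransferase, was replaced by kanMX4, and it also came from a YE plate. It is called the unadapted culture below. The adapted deletion was SpHT257-1 that had grown beside wild-type cells on a minimal EMM2-N plate that contained glutamate at 15 mM and isoleucine, valine and leucine at 2 mM. Adaptation and plate history therefore cannot be told apart. Every culture was then grown in liquid YE with 2 mM of the same 3 amino acids, starting at an optical density near 0.1 and harvested near 1. Both deletion cultures were of 1 strain, and nothing in the labels named a second isolate or culture.

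In growing cells the kinase Pat1 phosphorylates the RNA-binding protein Mei2 and so keeps it inactive. When nitrogen runs out, the transcription factor Ste11 switches on mei2 and the mating genes. A diploid that carries both mating types also makes Mei3, a small inhibitor of Pat1, and Mei2 is then released. Active Mei2 captures Mmi1, a YTH-domain protein that otherwise directs meiotic transcripts to destruction in growing cells. The mRNA of mei4, a forkhead transcription factor that drives the middle phase of meiosis, is one of the transcripts that Mmi1 removes. Haploid h- cells do not express the P-type information and do not normally complete this pathway.

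Values are log2 expression as deposited by the authors, and differences are between log2 values. A feature is said to have risen or fallen if it showed a difference of 2-fold or more between a pair of arrays, with the higher value at 9.82 or above (the brightness limit), which is the table's 30th percentile. With 1 array per culture there was no replicate spread, no difference could be tested, and precision is limited by the array number. The deleted gene eca39 read 14.60 in wild type, 6.12 in the unadapted culture and 6.37 in the adapted culture, lowest where the labels give a deletion. Mating type was checked with M-cell and P-cell genes. The M-factor gene mfm2 read 12.31, 12.35 and 13.30 in wild type, the unadapted culture and the adapted culture. Other M-cell genes were dimmer. In the same order mfm1 read 6.59, 7.46 and 9.28 and mfm3 read 7.47, 8.21 and 10.01. The readings were 8.28, 8.46 and 9.49 for mam2 and 9.68, 9.94 and 10.31 for mam1. The P-factor gene map2 read 7.42, 7.37 and 7.29 in the same order, below the table's 10th percentile of 7.92. Other P-cell genes were not all that dim. The M-factor receptor gene map3 read 8.38, 8.15 and 8.22, and map1, which encodes a factor for P-cell genes, read 7.00, 7.59 and 8.81. The map1 reading was highest in the adapted culture. In wild type mfm1 and mfm3 also lay below the 10th percentile, so these levels did not separate M-cell from P-cell genes. Of 5 measured M-cell genes out of 6 listed, mfm3 rose in the adapted culture, where 1.06% of all features rose. The median difference of the list from wild type was 1.21 there, against 0.027 over all features. The part of this shift in the results for mei2 was not tested.

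Of the 5 regulators, only mei2 rose under this rule, and it did so in the adapted culture. The value of mei2 was 9.16 in wild type, 10.11 in the unadapted culture and 11.72 in the adapted culture. The adapted reading was the highest and the wild-type reading the lowest, and the unadapted deletion lay between them. On the wild-type array mei2 stood at the 19.8th percentile of features, on the deletion array at the 36.1st and on the adapted array at the 72.7th. Its signal lay below the brightness limit in wild type and in the brighter part of the array in the adapted culture. In bulk cultures, a larger share of cells that express a gene and more RNA per cell cannot be told apart.

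**Figure D1:**
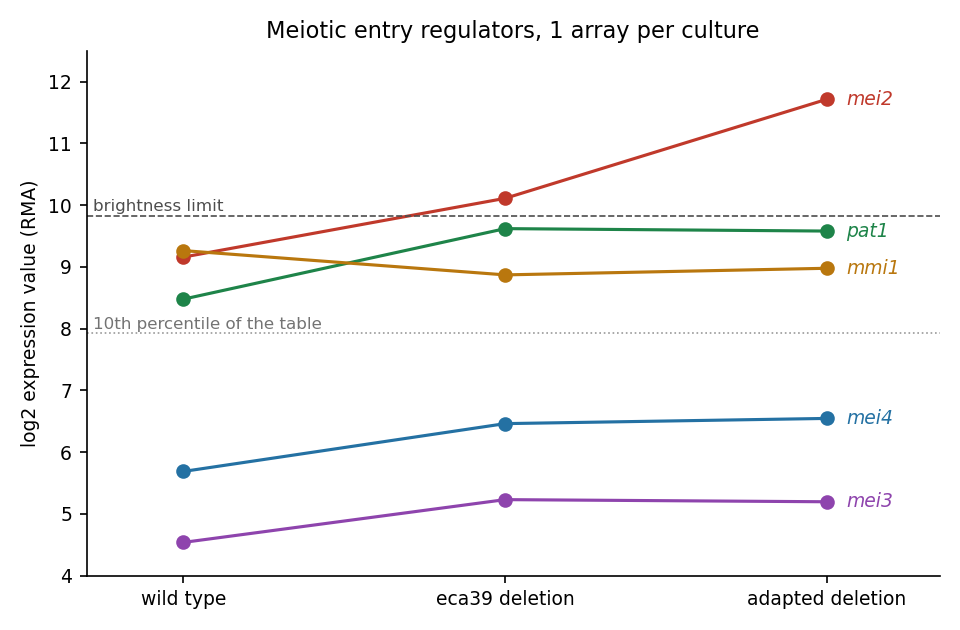
The plot shows the log2 expression value of each regulator (vertical axis) on the array of each culture (horizontal axis), with 1 point per array and lines that join the arrays for 1 gene. The dashed line is the brightness limit at 9.82 and the dotted line the 10th percentile of the table at 7.92, and mei2 alone crosses the dashed line, reaching 11.72 in the adapted culture.

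The difference of mei2 from wild type was 0.95 in the unadapted deletion, a 1.93-fold higher signal that just missed the size rule. In that comparison 1.65% of all 4981 features rose, and 0 of the 5 regulators did, of which only mei2 reached the brightness limit. In the adapted culture the difference was 2.56, which is 5.89-fold. There 1.06% of features rose and 1 of the 5 regulators did, namely mei2, again the only 1 that reached the limit. Only 9 features differed more in that direction, and among those that reached the brightness limit mei2 ranked 8th. Between the adapted and the unadapted deletion, mei2 differed by 1.61, or 3.04-fold, in a comparison in which 0.141% of features rose. It ranked 2nd there among features that reached the limit.

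None of the regulators fell in any comparison, but all except mei2 stayed below the brightness limit and could not be called. Of all features, 0.0602% fell in the unadapted culture and 0.161% in the adapted culture against wild type. In the adapted culture against the deletion 0.341% fell. The comparisons share arrays, so their values are set side by side and were not combined.

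**Figure D2:**
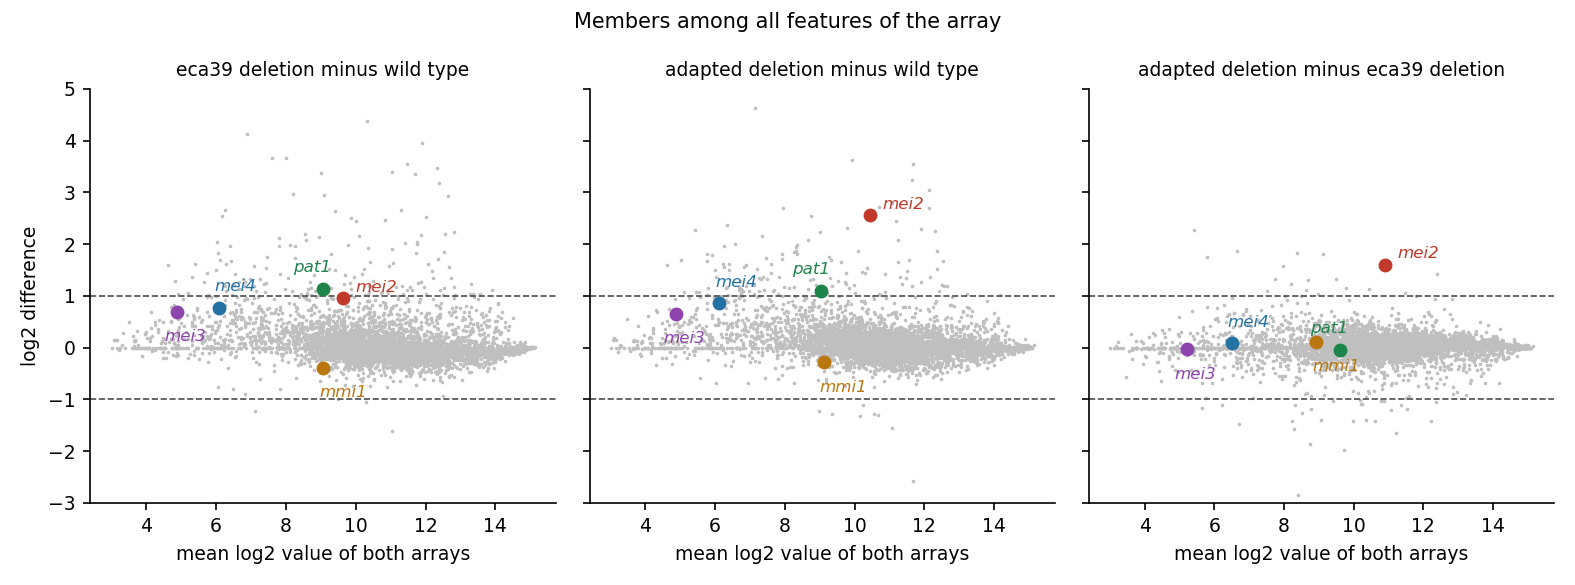
Each panel plots, for 1 pair of arrays, the log2 difference (vertical axis) against the mean log2 value of both arrays (horizontal axis) for all features in grey and the 5 regulators in colour, with dashed lines at 2-fold. One feature per panel lies outside the drawn range, which is eca39 in both comparisons with wild type, and mei2 stands apart from the grey cloud at 2.56 in the middle panel and 1.61 in the right panel.

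The kinase gene pat1, whose product restrains Mei2, was also higher in both deletion cultures. It read 8.48 in wild type, 9.62 in the unadapted culture and 9.58 in the adapted culture. Both deletion readings lay above wild type and close to each other, and none of the 3 reached the brightness limit. The differences from wild type were 1.14 (2.21-fold) and 1.10 (2.15-fold), so pat1 exceeded 2-fold without passing the size rule. Without the brightness limit, 2.97% of features were at least 2-fold higher in the unadapted culture and 2.49% in the adapted culture. The adapted culture differed from the unadapted one by -0.04 in pat1, in a comparison in which 0.361% of features were at least 2-fold higher without the limit. When the log2 table was quantile-normalized once more, the differences from wild type were 0.95 and 0.90, both short of 2-fold. Other scalings put the adapted culture on either side of 2-fold. Its difference was 0.99 with the intensity trend removed and 1.05 with the arrays centred on their medians.

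The order of pat1 and mei2 therefore differed between the comparisons. In the unadapted deletion pat1 had the slightly larger difference of the pair, 1.14 against 0.95, and in the adapted culture mei2 did. With 1 array per culture the order in the unadapted deletion was not tested. The step from the unadapted to the adapted culture was 1.61 for mei2 and -0.04 for pat1.

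The inhibitor gene mei3 and the transcription factor gene mei4 were dim on every array. The mei3 probe set read 4.54 in wild type, 5.23 in the unadapted culture and 5.20 in the adapted culture, between the 1.57th and the 2.43rd percentile of each array. The mei4 probe set read 5.69, 6.46 and 6.55 in the same order, between the 3.85th and the 4.82nd percentile. Both genes read higher in the deletion cultures than in wild type, and the deletion cultures read nearly alike. For mei3 the difference from wild type was 0.69 in the unadapted culture and 0.66 in the adapted culture. For mei4 it was 0.77 and 0.86. Dim features as a whole had lower values in wild type. The 491 features with a mean below 7.92 had a median difference of 0.18 in the unadapted culture and 0.22 in the adapted culture. Over all features these medians were 0 and 0.027. The part of this shift in the values of mei3 and mei4 was not tested.

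The gene of the RNA-removing protein Mmi1 was the only 1 of the 5 to read below wild type in both deletion cultures. It read 9.26 in wild type, 8.87 in the unadapted culture and 8.98 in the adapted culture. The differences were -0.39 and -0.29, far from the size rule, and all 3 readings lay below the brightness limit. In the deletion 123 of 4981 features had a lower difference than mmi1, and in the adapted culture 236 did.

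Brightness affects how far values scatter, so each regulator was set beside the 200 features nearest to it in mean brightness on the same pair of arrays. For mei2 the central range of those features, from their 5th to their 95th percentile, was -0.22 to 0.53 in the unadapted culture and -0.28 to 0.35 in the adapted culture. The mei2 differences of 0.95 and 2.56 lay above these ranges, and 0 of the 200 exceeded mei2 in the adapted culture. Between both deletion cultures the range was -0.22 to 0.29, again below the mei2 value of 1.61.

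The pat1 differences also lay above their ranges, which were -0.22 to 0.64 in the unadapted culture and -0.19 to 0.71 in the adapted culture. Of 200 equally bright features, 5 differed more than pat1 in the unadapted culture and 3 in the adapted culture. The mmi1 differences lay below their ranges of -0.23 to 0.75 and -0.20 to 0.73, with 6 and 7 of the 200 features lower still. Values of mei3 and mei4 fell inside theirs. For mei3 the range was -0.15 to 1.04 in the unadapted culture and -0.15 to 1.08 in the adapted culture. For mei4 it was -0.14 to 1.55 in the adapted culture. Of its 200 features, 38 differed more than mei4 in the unadapted and 46 in the adapted culture. These ranges describe the scatter between genes on a pair of arrays, which holds real effects as well as error, and are no replicate error.

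**Figure D3:**
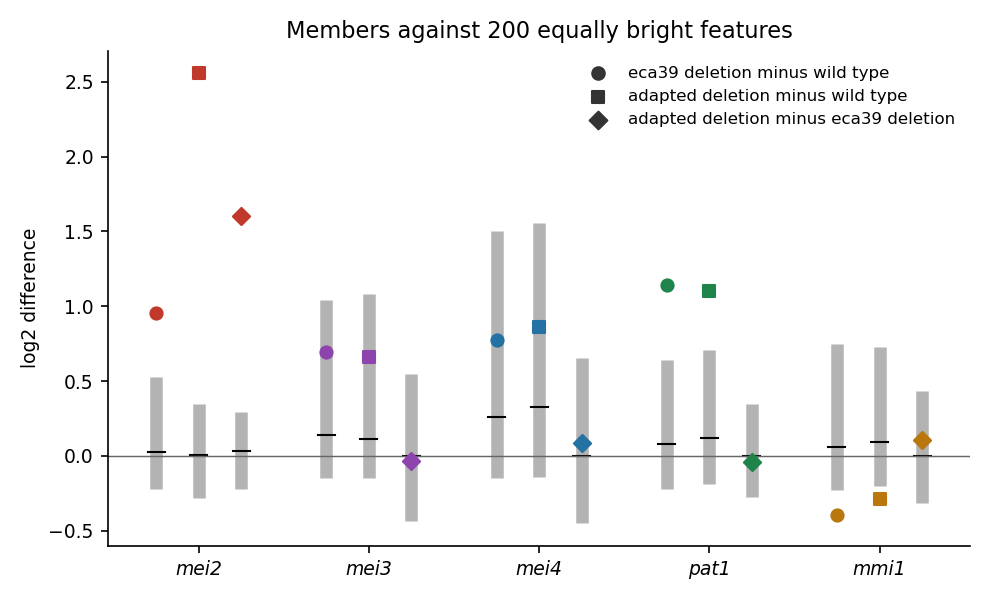
Points give the log2 difference (vertical axis) of each regulator (horizontal axis) in the 3 comparisons, and grey bars the 5th to 95th percentile of the 200 features of nearest mean brightness, with their median as a black tick. The points of mei2 and the first 2 points of pat1 lie above their bars, those of mei3 and mei4 lie inside, and the first 2 points of mmi1 lie below.

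The nearest measured protein-coding gene on each side of each regulator was read from the gene order of assembly ASM294v3. Beside mei2, ric1 differed from wild type by 0.05 and 0.04 in the unadapted culture and the adapted culture, and omt2 by 0 and 0.21. Beside mei4, the kinase gene cdk9 differed by 0.03 and -0.16 and the actin gene act1 by 0.03 and 0.10. Neighbours of mei3 (ubc4 and sco1) and of mmi1 (ago1 and dis1) had differences between -0.13 and 0.15. None of these 8 neighbours rose or fell. On 1 side of pat1, however, ubp11, the gene of a ubiquitin protease, read 10.15, 11.74 and 11.57 and rose in both deletion cultures, by 1.59 and 1.42. On the other side mug124, named for its induction in meiosis, differed by -0.22 and -0.33. No measured or unmeasured protein-coding gene lies between ubp11 and pat1 in that assembly. The same gene table places 3 non-coding genes over mei2, 2 each over mei4 and mmi1 and 1 each over mei3 and pat1, none of them matched to a probe set. Their part in these signals was not tested.

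Likeness to mei2 was measured by the distance between pairs of differences from wild type, over 2 differences only. Among the 2162 other named genes whose brightest array was at or above the brightness limit, the 5 nearest were mfm3, ght5, spk1, mmf2 and ubp11. Without that limit, a choice made after the data were seen, the 5 nearest were mfm1, mfm3, ght5, isp5 and map1, at distances from 0.16 to 0.83. Of these, mfm1, isp5 and map1 were below the limit on every array. Within the limit the closest was the M-factor gene mfm3 (distance 0.22), with differences of 0.73 and 2.54. Its 2 probe sets gave 1.05 and 0.41 in the unadapted culture and 2.89 and 2.18 in the adapted culture. The hexose transporter gene ght5 followed (distance 0.50), with 1.08 and 2.08. The pheromone-pathway kinase gene spk1 lay at a distance of 1.04, with 0.37 and 1.70. Of these, mmf2 and ubp11 read slightly lower in the adapted than in the unadapted deletion, by -0.07 and -0.16, and so resembled mei2 least in that step.

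Genes that act upstream of mei2 were mostly close to wild type, apart from ste11. Of 11 genes in a list of ste11 and its inducers in the stress kinase pathway, ste11 alone rose in the adapted culture and 0 rose in the unadapted culture. Over all features 1.06% and 1.65% rose in these cultures, and 0.161% and 0.0602% fell. At such shares a count of 0 says little about a short list, here and in the lists below. The ste11 probe set read 10.62, 10.93 and 11.99 in wild type, the unadapted culture and the adapted culture. Like mei2 it was highest in the adapted culture, and its difference from wild type was 0.32 in the unadapted culture and 1.37 in the adapted culture. The list's medians were -0.013 and -0.0049. Among its other members wis4, a kinase of the stress cascade, stood at 0.48 and 0.13, and wis1, another kinase of that cascade, at -0.30 and -0.15. The bZIP factor gene pcr1 stood at 0.25 and 0.23, and rst2, whose product activates ste11, at 0.06 and 0.24.

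The cAMP pathway, which holds down ste11 and mei2 when glucose is plentiful, had 0 of 12 members that rose or fell. Its medians were 0.0075 in the unadapted culture and 0.12 in the adapted culture. The gene of the G-protein alpha subunit Gpa2, which activates adenylate cyclase, read 10.10, 9.92 and 9.35. It was lowest in the adapted culture, at -0.75 from wild type. The gene git7 differed by 0.81 and 0.53, the phosphodiesterase gene cgs2 by 0.11 and 0.30 and the G-protein beta subunit gene git5 by 0.01 and 0.29.

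Among 15 genes for TOR kinases, turnover factors and other factors that act on Mei2 or Ste11, 0 rose or fell. The medians were -0.045 and -0.020. Differences ran from -0.30 to 0.18 in the unadapted culture and from -0.15 to 0.17 in the adapted culture. The RNA-binding repressor gene nrd1 stood at -0.30 and -0.09, sds23 at 0.18 and 0.17, the ubiquitin-conjugating enzyme gene rhp6 at -0.17 and -0.11 and the kinase gene tor1 at -0.13 and 0.05. The TOR kinase gene tor2, which opposes Mei2 in growing cells, had differences of 0, with 10.87 on all 3 arrays. Identical values on every array also occurred for sck1, rec7, mek1 and mde7, and how such ties arise was not tested.

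The machinery that works with Mmi1 was measured for 12 of 20 listed genes, and 0 of them rose or fell. The medians were -0.065 in the unadapted culture and -0.039 in the adapted culture. The exosome nuclease gene dis3 stood at -0.33 and -0.39, and the genes not2, rcd1 and caf1 of the CCR4-NOT complex at -0.30, -0.25 and -0.08 in the unadapted culture and at -0.07, -0.03 and 0.10 in the adapted culture. Meiotic transcripts reported to be removed through Mmi1, apart from mei4, were measured for all 9 listed genes. All 9 stayed below the brightness limit on every array, so none could pass the size rule. Their medians were 0.28 and 0.35, against 0 and 0.027 over all features. With quantile normalization repeated they were -0.10 and -0.070, so the direction of this dim list turned under that scaling. In the adapted culture the median stayed above 0 under the other scalings. It was 0.18 with the intensity trend removed and 0.30 with the arrays centred on their medians. Of its members, mug8 read 6.19, 7.45 and 7.32, the meiotic cyclin gene crs1 differed by 0.40 and 0.43 and num1, a cortical anchor of dynein, by -0.10 and 0.45.

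Genes of mating and pheromone response, which Ste11 controls together with mei2, were measured for 17 of 21 listed. In the adapted culture spk1 and ste7 rose, 14 of 17 differed upward and the median was 0.63, where 1.06% of all features rose and 56.1% differed upward. In the unadapted culture 0 rose, 13 differed upward and the median was 0.18, where 45.9% of all features differed upward. The spk1 probe set read 8.47, 8.84 and 10.17, and that of ste7 read 9.08, 9.21 and 10.36, so both were highest in the adapted culture. Below the brightness limit, the P-factor receptor gene mam2 stood at 0.18 and 1.21, map1 at 0.59 and 1.81 and the formin gene fus1 at 1.42 and 1.03. The gene of the Ras activator Ste6 read 8.58, 7.98 and 8.97, lowest in the unadapted culture. With quantile normalization repeated the medians of this list were 0.026 and 0.43.

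Downstream of Mei2, 0 of 20 early meiosis genes and 0 of 21 middle and late meiosis genes rose or fell. Of all features, 1.65% rose and 0.0602% fell in the unadapted culture, and 1.06% rose and 0.161% fell in the adapted culture. At such shares a count of 0 in lists this short says little about them. Only 1 of the early and 5 of the later genes reached the brightness limit in either comparison with wild type. The early list had medians of 0.24 and 0.26 and the later list medians of 0.048 and 0.098. With quantile normalization repeated these became 0.033 and 0.069 for the early and -0.20 and -0.10 for the later list. Of the 491 features with a mean below 7.92, 8.96% were at least 2-fold higher in the unadapted culture and 10.6% in the adapted culture. Among the dim early genes, rec10, which encodes a linear element protein, stood at 1.26 and 1.55, mug20 at 0.49 and 1.16 and rep1, a coactivator gene of premeiotic replication, at 0.56 and 1.09. Among the dim later genes, meu14, which acts in forespore membrane formation, stood at 1.13 and 1.28 and the spore wall gene isp3 at 1.19 and 0.95. Others went down, 6 of the 21 in the unadapted culture and 8 in the adapted culture. Of all 4981 features, 2134 went down in the unadapted culture and 1735 in the adapted culture. A departure of the later list from these shares was not tested. The dim gene spo6 read 7.29, 6.39 and 6.61, at -0.90 and -0.68 from wild type. Only 6 features in the unadapted and 13 in the adapted culture had a lower difference.

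**Figure D4:**
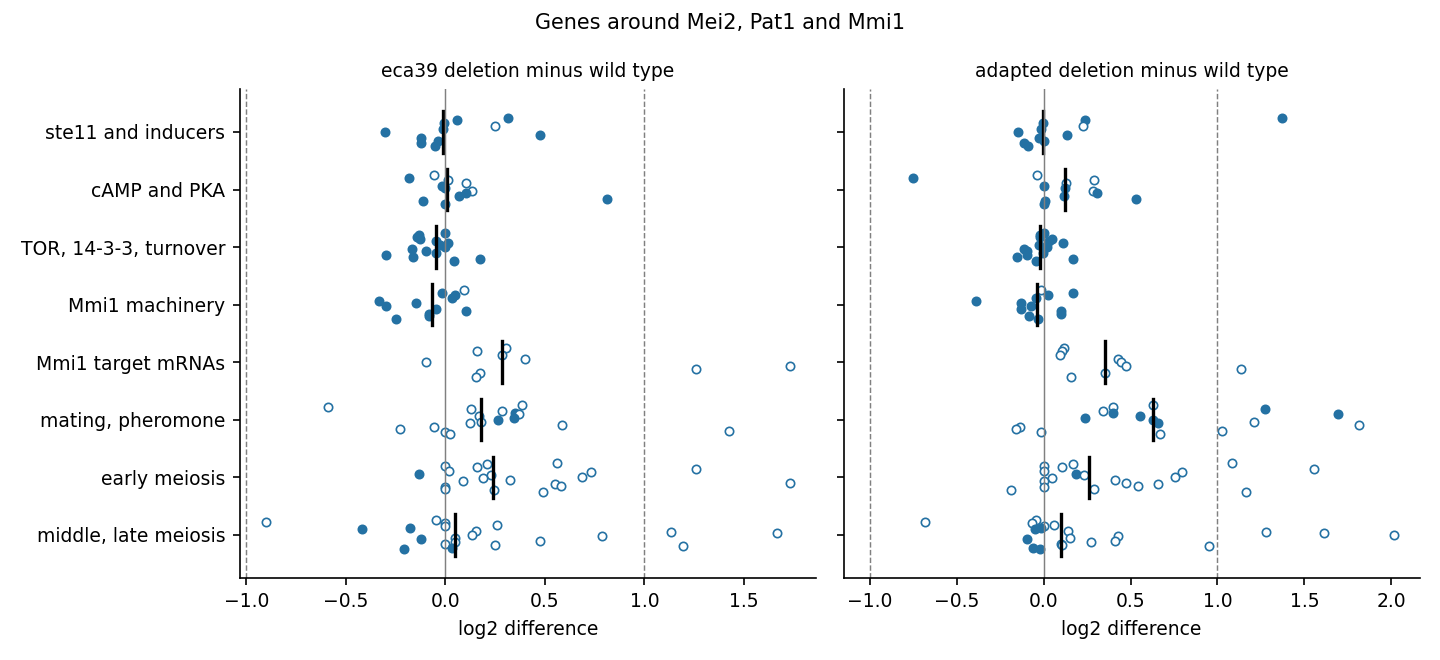
Each point is 1 gene of a list (vertical axis), placed at its log2 difference from wild type (horizontal axis) in the unadapted culture on the left and the adapted culture on the right; filled points reached the brightness limit, open points did not, black ticks are list medians and dashed lines mark 2-fold. Filled points beyond 2-fold are ste11, ste7 and spk1, all in the adapted culture, while the points of the meiotic lists beyond 2-fold are open.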

How the data were processed

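Total RNA was labelled with biotin by a 3' IVT kit, per the labels' protocols, and hybridised to 1 Affymetrix array per culture. Per the submitters' processing notes, the authors made the deposited log2 values with RMA from affy (versions not given in the sources used here). The log base was taken from RMA's usual output and the values' range of 2.99 to 15.17. RMA scales the arrays towards a common distribution and could hide a shift of most transcripts. The deposited arrays were not identical in distribution. Their medians were 10.64 in wild type, 10.69 in the unadapted culture and 10.69 in the adapted culture. The platform annotation, which can be old, gave 1 gene name for 2917 of 4999 probe sets, several for 20 and no name for 2062. Gene numbers of 2914 matched the table of assembly ASM294v3, which updated 113 names, and no positions of it are given. Where a gene had several probe sets, their log2 values were averaged. The members and the 10 gene lists were chosen with earlier results of these data known.

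A size rule (2-fold, with the brighter array at or above 9.82) replaced a test. Named genes were the 5 regulators, eca39, the nearest measured neighbours, the 5 nearest profiles of mei2, and from each list all genes that passed plus up to 4 by largest difference. A few further list members are named for their role, and spo6 for its low values in the deletion cultures. The list of P-cell genes held mam3, an M-cell agglutinin gene, by oversight. It had 4 of 5 genes measured and a median difference of 0.033 in the unadapted and 0.26 in the adapted culture. The M-cell list had medians of 0.27 and 1.21. The analysis used Python 3.11.15, pandas 2.3.3 and statsmodels 0.14.6.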

Additional observations from a re-analysis of the deposited data

How the results depend on the processing

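Of 9 alternatives, the 6 on fold, brightness limit and probe sets could not move a regulator's difference, and 3 rescaled the arrays. Under those 3 the mei2 difference kept its direction in all 3 comparisons. The ranges given here include the reported value as well as the rescaled ones. For mei2 they were 0.84 to 0.95 in the unadapted culture, 2.46 to 2.56 in the adapted culture and 1.58 to 1.61 between them. Differences of pat1 (0.95 to 1.14 and 0.90 to 1.10 against wild type), mei3 (0.45 to 0.69 and 0.40 to 0.66) and mei4 (0.41 to 0.77 and 0.40 to 0.86) stayed above 0, and mmi1 stayed below it (-0.54 to -0.39 and -0.45 to -0.29). The small mei4 difference between both deletion cultures ran from -0.0062 to 0.086. In the unadapted culture 0 regulators rose, but 1 did at 1.5-fold (mei2) and 1 without a brightness limit or with it at the 10th percentile (pat1). In the adapted culture 1 rose, but 2 did without the limit or with it at the 10th percentile (mei2 and pat1). The counts over all features against wild type moved at 1.5-fold from 82 up to 197 and from 3 down to 22 in the unadapted culture, and from 53 up to 130 and 8 down to 15 in the adapted culture. At 3-fold they were 36 up in the unadapted culture and 23 up and 2 down in the adapted culture, and without the limit 148 and 124 up. With the limit at the 10th percentile, 87 rose in the adapted culture. Between the deletion cultures, 7 rose and 17 fell, which became 24 and 55 at 1.5-fold, 2 and 3 at 3-fold and 18 and 28 without the limit. There 15 rose with the limit at the 10th percentile and 4 at the 50th. These thresholds differ by construction in which features can be counted. No paired analysis was possible because each group had 1 array, and no array could be left out. Signal close to background limits mei3 and mei4, whose values cannot show whether a transcript was present.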

Other observations

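Some dim genes of the meiotic lists had a profile of their own, and these were chosen after their values were seen. Of the sporulation septin genes, spn5 read high in both deletion cultures and spn6 in the adapted culture. The spn5 probe set read 5.59 in wild type, 7.25 in the unadapted culture and 7.20 in the adapted one, and that of spn6 read 5.57, 5.71 and 7.58. Between both deletion cultures only 1 of 4981 features differed upward more than spn6, at 1.88. Another septin gene of the list, spn7, read 8.48, 9.27 and 8.91. The recombination gene mcp7 went the opposite way, at 7.40, 9.14 and 7.88, and 13 features fell further than its -1.26 between the deletion cultures. None of these genes reached the brightness limit on any array.

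Among genes that reached the limit, gpa2 stood near the low end of the adapted culture against wild type. Its difference of -0.75 did not pass the size rule, and 10 of 4981 features had a lower one.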
